A study of Homo sapiens with 10 samples.

Results

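Long non-coding RNAs with an abundant transcript in KOPT-K1, an established line of human T-cell acute lymphoblastic leukaemia (called T-ALL), were described by their ribosome footprints and their total RNA. Members were the genes typed lincRNA, antisense, lncRNA or processed_transcript in GENCODE release 29, matched by Ensembl gene ID, with a mean of at least 5 RPKM over the 6 total RNA libraries. RPKM is the read number scaled by exon length and library size, so levels are compared per length. Genes named SNHG, GAS5 or ZFAS1, which host small nucleolar RNAs (snoRNAs), were left out. This gave 332 genes of 55889 gene IDs: 251 were typed antisense, 41 processed_transcript and 40 lincRNA, and 0 carried the type lncRNA. Members were thus chosen by their measured RNA level, and that level is given as a description. The nearest genes inside the minimum were LINC00426 at 5.03 RPKM and AL122035.1 at 5.07 RPKM, and the nearest outside it were ZBTB47-AS1 at 4.97 RPKM and CD27-AS1 at 4.95 RPKM.

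The cells received DMSO, the solvent control, or 25 nM silvestrol for 45 min in the same medium. Silvestrol is a plant compound that inhibits eIF4A, the RNA helicase that prepares the 5′ ends of messenger RNAs for translation initiation. Each treatment had 2 footprint libraries and 3 total RNA libraries, 10 in all, all from 1 cell line. The labels do not tie replicates to cultures, and p-values here reflect library-to-library spread that may be technical. Estimated depth was 1.66 to 2.38 M reads for footprints and 126.6 to 216.3 M for RNA. The median member had an estimated 11.1 footprint reads per library, 158 members had fewer than 10 and 28 had at least 100. The line matched its label: the 12 T-ALL markers all had at least 1 RPKM of RNA, against 2 of 16 matched markers of other cell types. Those 2 were the B-cell genes CD79A (31.4 RPKM) and CD79B (8.3 RPKM), within the range of the T-ALL markers (3.61 to 674 RPKM).

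Long non-coding RNAs are transcripts longer than small RNAs with no annotated protein. Some stay in the nucleus, such as MALAT1 in splicing speckles and NEAT1, which builds paraspeckles. Others reach the cytoplasm, where ribosomes can engage short open reading frames, and many antisense transcripts lie across the exons of a protein-coding gene on the opposite strand. Footprints are RNA fragments that survive nuclease digestion, mostly because a ribosome covers them. The deposited values are 1 number per gene and library, so the position of a footprint in the transcript, its reading frame and whether it came from a ribosome were not tested.

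Most members shared exon sequence with a protein-coding gene. In the GENCODE 29 models, 288 of the 332 had exon bases in common with protein-coding exons, 261 mainly on the opposite strand and 27 mainly on the same strand. Of these, 204 touched coding sequence and 84 touched untranslated exon parts only, while 44 overlapped no coding exon. These classes were set after values had been seen. The sources used here do not state how the authors used strand and shared reads, so reads of an overlapping pair cannot be told apart, and the values of 288 members are uncertain for this reason.

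In DMSO, footprint levels spread more widely around the RNA levels than in protein-coding genes, and they differed by the kind of exon a member overlapped. The footprint-to-RNA ratio is given here as mean log2(footprint RPKM + 0.5) minus mean log2(RNA RPKM + 0.5). Its median was -1.17 over the 332 members, -0.50 over 7011 protein-coding genes with the same RNA minimum, and -0.08 over 21 snoRNA host genes. The middle 50% of members ran from -3.04 to 0.08, against -1.01 to -0.02 in protein-coding genes. Below the 5th percentile of protein-coding genes, which was -2.17, lay 117 members (35.2%), and above their 95th percentile lay 46 members (13.9%). Listed at 0 in all 4 footprint libraries were 38 members and 3 of the protein-coding genes. In silvestrol the members' median ratio was -1.36 and that of protein-coding genes -0.58. Median exon length was 730 nt in members and 4825 nt in protein-coding genes, so at equal RPKM a member holds fewer footprint reads. The median SD between DMSO footprint replicates on the log2 scale was 0.29 in members and 0.15 in protein-coding genes. How far these differences account for the wider spread and the values of 0 was not tested. All these values are descriptions with no test.

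**Figure D1:**
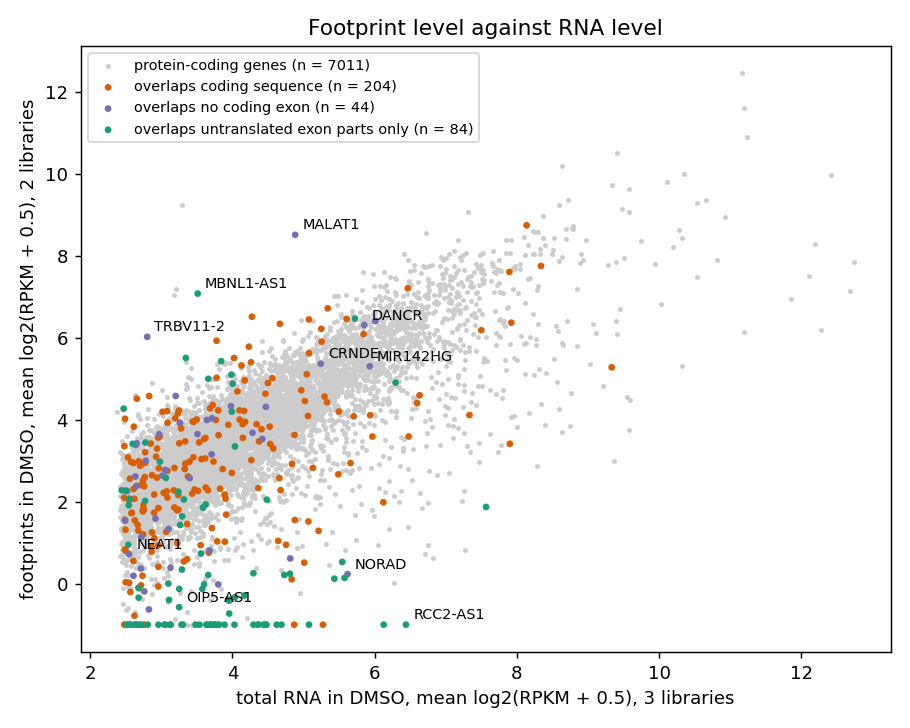
Mean total RNA (x axis) against mean footprints (y axis) in DMSO, both as log2(RPKM + 0.5), for 7011 protein-coding genes (grey) and 332 long non-coding RNAs coloured by exon overlap. MALAT1, MBNL1-AS1 and TRBV11-2 have ratios above the 95th percentile of protein-coding genes, and NORAD and RCC2-AS1 below the 5th. Single protein-coding genes range from -6.45 to 5.95. Genes listed at 0 form the bottom row at -1.

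Members that overlapped no coding exon had a median ratio of -0.57 and those touching coding sequence -0.84, while those touching only untranslated parts had -3.70. The median footprint level was 5.59, 6.89 and 0.515 RPKM in the same order. The last class split by the side of the overlap. The 60 members lying mainly over the region after the partner's coding sequence had a median ratio of -4.34 and a median footprint level of 0.209 RPKM, 24 of them were listed at 0 in all 4 footprint libraries, and 53 (88.3%) were below the 5th percentile of protein-coding genes. The 18 members lying mainly over the region before it had a median of 0.44 and 12.8 RPKM, and 0 of 18 were below that percentile. The other 6 lay within the coding span and had a median of -4.01. As background, in protein-coding messages ribosomes normally leave at the stop codon, so the region after it holds few footprints, while the region before the start codon can hold some. For 81 of the 84 members of the untranslated class the partner lies on the opposite strand, and whether this background applies to them was not tested. The low ratio of this class was seen both under 600 nt of exon length (median -4.36, 41 members) and at 600 nt or more (median -3.02, 43 members). Its ratio had a Spearman rho of 0.33 with transcript length. Median exon length was 578.5 nt in the members after the coding sequence and 1109 nt in those before it. The cause of the low ratio was not tested.

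**Figure D2:**
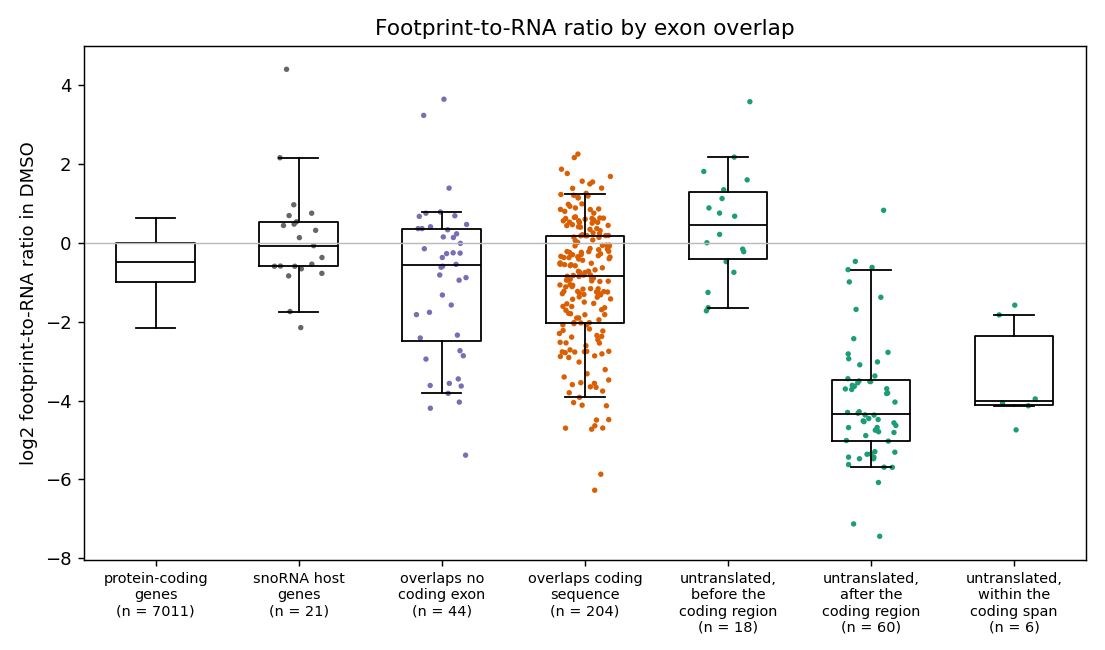
Log2 footprint-to-RNA ratio in DMSO (y axis) by class (x axis), with points for single genes except protein-coding genes. Boxes give the quartiles and median and whiskers the 5th and 95th percentiles; the 60 members over the region after a coding sequence have a median of -4.34 and the 18 over the region before one a median of 0.44.

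Among members without coding exon overlap, MALAT1 on chromosome 11 had the highest ratio of all members. Its RNA was 27.9, 29 and 30.1 RPKM in DMSO and 27.0, 29.6 and 28.3 in silvestrol. Its footprint values were 318 and 420 RPKM in DMSO and 409 and 433 in silvestrol. These values put its ratio at 3.63 in DMSO and 3.87 in silvestrol, and the treatment groups overlapped in both assays. NEAT1, also nuclear, went the other way, with RNA of 4.94 to 5.68 RPKM in the 6 libraries. Its footprint values were 0.930 and 1.40 RPKM in DMSO and 1.09 and 0.756 in silvestrol, from an estimated 35.0 to 59.0 reads per library, and its DMSO ratio was -1.82. The 2 nuclear RNAs thus stood on opposite sides of the protein-coding median of -0.50.

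TRBV11-2, typed lincRNA, carries by its name a variable segment of the T-cell receptor beta chain, a gene that encodes protein once rearranged. Its footprints were 94.1 and 44.3 RPKM in DMSO and 70.1 and 80.7 in silvestrol, against RNA of 6.43 to 6.54 and 6.86 to 7.74 RPKM. The 3 silvestrol RNA libraries all lay above the 3 DMSO libraries. The log2 change of RNA was 0.18 (SE 0.05), with a limma adjusted p of 0.25, so the difference did not pass the test.

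NORAD had the lowest ratio among members without coding exon overlap. NORAD is a cytoplasmic RNA known for repeated TGTANATA elements. It was chosen after its values were seen, like DANCR, CRNDE, TP53TG1, GIHCG, OIP5-AS1, EPB41L4A-AS1 and PCBP1-AS1. Its RNA was 47.1, 48.5 and 50.3 RPKM in DMSO and 46.8, 48.3 and 46.4 in silvestrol. Its footprints were 0.248 and 1.35 RPKM in DMSO and 0.473 and 0.644 in silvestrol, which came to an estimated 3 to 12 reads per library. Its ratio was -5.38 in DMSO and -5.50 in silvestrol. The GENCODE 29 transcript of 5339 bases held 15 matches to TGTANATA on its own strand. Windows of 28 bases around 4 of them are shown, with the match in capitals, because they carry the element NORAD is known for.
NORAD site 1: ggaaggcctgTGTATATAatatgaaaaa
NORAD site 3: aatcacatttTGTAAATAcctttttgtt
NORAD site 11: aaccctactgTGTATATAgcggacaaac
NORAD site 15: ttagcctattTGTAAATAcctttgttat
These windows start at bases 751, 1231, 2962 and 4589 of the transcript, respectively. The same letters occurred in the longest transcript of 32 of 332 members (9.64%) and in 6 of 13 members of at least 5000 bases (46.2%).

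GIHCG, DANCR, CRNDE and TP53TG1 had footprint values near their RNA values. DANCR, which was named for holding back differentiation, had footprints of 84.1 and 74.2 RPKM in DMSO and 48.2 and 69.7 in silvestrol, and RNA of 56.2 to 59.5 RPKM in all 6 libraries. The 2 silvestrol footprint libraries lay below the 2 DMSO libraries, with a log2 change of -0.44 (SE 0.20) and a limma adjusted p of 0.73. GIHCG had 79.4 and 89.9 RPKM in DMSO footprints and 82.4 and 61.1 in silvestrol, so its groups overlapped. CRNDE, a transcript often raised in tumours, had 40.0 and 41.7 RPKM in DMSO and 38.1 and 38.9 in silvestrol, with RNA of 36.8 to 38.2 RPKM. Its silvestrol footprint values lay just below the DMSO values, and the log2 change of -0.08 (SE 0.13) had a limma adjusted p of 0.90. TP53TG1, a p53-induced transcript, spread most, from 12.4 and 20.4 RPKM in DMSO to 5.41 and 14.4 in silvestrol, and exons of small RNA genes covered 32.6% of its length.

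The DMSO ratios of these 4 were 0.46 for DANCR, 0.40 for GIHCG, 0.33 for TP53TG1 and 0.13 for CRNDE, all above the protein-coding median. Their longest ATG-to-stop reading frames in the GENCODE 29 transcripts (GRCh38) are shown to give a view of what a ribosome could read there, with the start and stop codons in capitals.
DANCR: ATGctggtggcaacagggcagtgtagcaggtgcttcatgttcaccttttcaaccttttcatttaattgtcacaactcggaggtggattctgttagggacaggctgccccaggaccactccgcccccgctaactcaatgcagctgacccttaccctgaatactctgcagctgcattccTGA
GIHCG: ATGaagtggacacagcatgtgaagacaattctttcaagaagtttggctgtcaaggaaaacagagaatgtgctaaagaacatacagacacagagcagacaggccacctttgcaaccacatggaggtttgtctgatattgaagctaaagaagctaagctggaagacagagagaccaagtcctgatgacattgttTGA
CRNDE: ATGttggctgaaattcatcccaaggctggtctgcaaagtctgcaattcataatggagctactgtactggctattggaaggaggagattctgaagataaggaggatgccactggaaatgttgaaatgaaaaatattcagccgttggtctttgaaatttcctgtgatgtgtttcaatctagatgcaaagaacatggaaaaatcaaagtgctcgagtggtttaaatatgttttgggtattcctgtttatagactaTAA
TP53TG1: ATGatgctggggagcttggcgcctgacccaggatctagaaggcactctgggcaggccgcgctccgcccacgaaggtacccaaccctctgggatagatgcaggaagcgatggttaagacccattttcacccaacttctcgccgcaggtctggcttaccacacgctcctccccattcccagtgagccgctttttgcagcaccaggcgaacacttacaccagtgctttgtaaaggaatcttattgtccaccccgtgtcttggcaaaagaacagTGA
These frames were 180, 195, 255 and 273 bases long. Over the 44 members without coding exon overlap, the median longest frame was 195 bases, and the ratio showed almost no rank correlation with frame length (Spearman rho -0.04 across 44 genes, a description, since the longest frame also depends on transcript length and base composition). The same rho was -0.06 over the 204 members touching coding sequence and 0.32 over the 84 touching untranslated parts only. A frame found in the letters is not a translated frame.

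**Figure D3:**
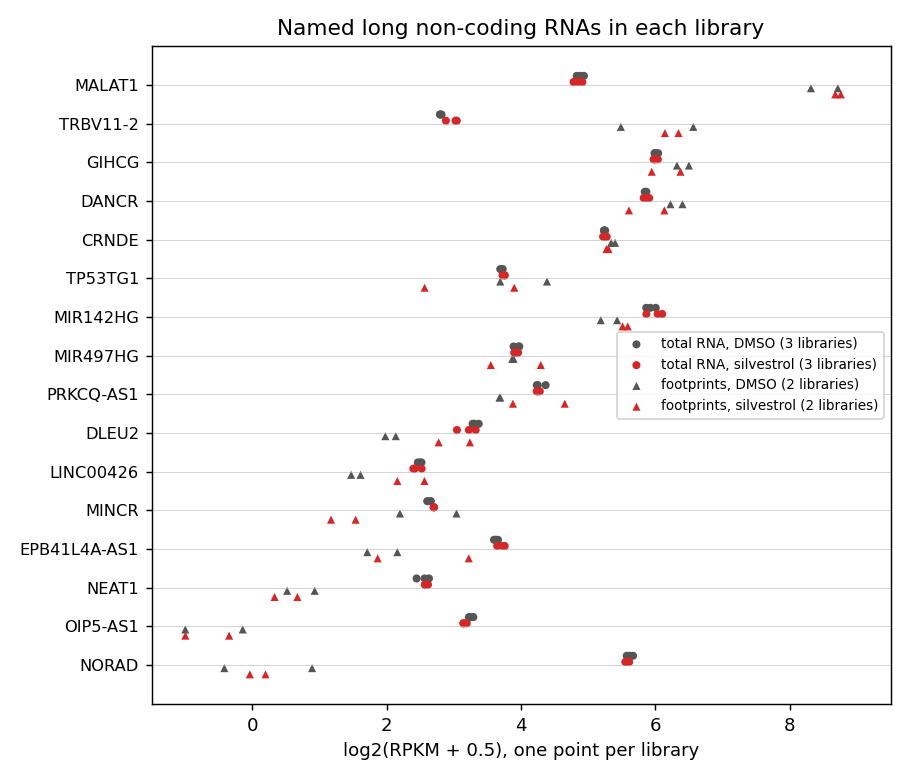
Log2(RPKM + 0.5) (x axis) of 16 long non-coding RNAs (y axis) in each library: circles are total RNA, triangles footprints, grey DMSO and red silvestrol. RNA points of a gene lie close together, while footprint points spread more, and MALAT1 and TRBV11-2 are the genes whose footprints lie far to the right of their RNA.

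MIR142HG, DLEU2 and MIR497HG are primary transcripts of microRNAs, small RNAs that pair with target messages through their seed, bases 2 to 8. The microRNAs they hold are shown with the seed in capitals, because a single seed is shared between DLEU2 and MIR497HG (RefSeq, GRCh38.p14).
miR-15a-5p: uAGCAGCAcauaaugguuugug
miR-16-5p: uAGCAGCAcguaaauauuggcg
miR-195-5p: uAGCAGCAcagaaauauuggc
miR-497-5p: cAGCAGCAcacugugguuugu
miR-142-5p: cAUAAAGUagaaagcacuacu
miR-142-3p: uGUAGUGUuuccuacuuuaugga
The first 4 share the seed AGCAGCA, miR-15a and miR-16 from DLEU2 on chromosome 13 and miR-195 and miR-497 from MIR497HG on chromosome 17. The miR-142 arms come from MIR142HG, a gene of blood cells on chromosome 17. MIR142HG had RNA of 57.7 to 68.1 RPKM, with footprints of 42.6 and 35.9 RPKM in DMSO and 47.6 and 45.1 in silvestrol. MIR497HG had footprints of 14.1 and 14.3 RPKM in DMSO and 11.2 and 19.1 in silvestrol, with RNA of 14.3 to 15.2 RPKM. DLEU2 had footprints of 3.89 and 3.44 RPKM in DMSO and 6.33 and 8.93 in silvestrol, while its RNA was 7.75 to 9.83 RPKM. Both silvestrol footprint libraries lay above both DMSO libraries for MIR142HG and DLEU2, and the groups overlapped for MIR497HG. Neither difference passed the test: the log2 changes were 0.24 (SE 0.15) and 0.95 (SE 0.27), with limma adjusted p values of 0.77 and 0.60. MIR497HG also overlaps coding sequence of C17orf49, and DLEU2 an untranslated exon part of TRIM13.

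Members on the T-cell and leukaemia list differed in their ratios. PRKCQ-AS1, named after the gene of a T-cell kinase, had RNA of 18.3 to 20.1 RPKM, footprints of 12.4 and 12.3 RPKM in DMSO and 24.6 and 14.2 in silvestrol. LINC00426 had footprints of 2.55 and 2.27 RPKM in DMSO and 5.40 and 3.96 in silvestrol. HCG18, from the MHC region of chromosome 6, had 4.39 and 4.27 RPKM in DMSO and 2.39 and 2.18 in silvestrol. Of the 7 members on the list, DLEU2 included, the 2 silvestrol footprint libraries lay above both DMSO libraries in 3 (background 13.1%) and below both in 1 (background 25.2%), and overlapped in the other 3. PRKCQ-AS1, LINC00426 and HCG18, whose groups did not overlap, had limma adjusted p values of 0.74, 0.67 and 0.67. TMPO-AS1 and PSMB8-AS1 had DMSO ratios of 1.38 and -1.12, the first above the 95th percentile of protein-coding genes, 0.61.

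The members with the most RNA all lay across exons of protein-coding genes. AC093484.3, opposite the ubiquitin gene UBB, had a mean of 636 RPKM of RNA and footprints of 26.8 and 54.8 RPKM in DMSO and 17.3 and 32.0 in silvestrol. AL133415.1 lies opposite VIM, the gene of the intermediate filament vimentin, and had 282 RPKM of RNA and footprints of 464 and 397 RPKM in DMSO and 376 and 384 in silvestrol. AC023509.1 shares strand and coding sequence with PCBP2 and had RNA of 310 to 324 RPKM. The other 12 of the 15 members with the most RNA had DMSO ratios from -7.44 to 0.75.

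At the other end, RCC2-AS1 had RNA of 90.1, 87.1 and 81.7 RPKM in DMSO and 83.2, 80.5 and 82.3 in silvestrol and was listed at 0 in all 4 footprint libraries. It lies opposite the end of RCC2, a mitotic regulator, which had 85.9 RPKM of RNA and 23.6 RPKM of footprints. AC005944.1, opposite the end of TLE5, had 179 to 193 RPKM of RNA and footprints of 3.13 and 3.20 RPKM in DMSO and 0.746 and 4.36 in silvestrol. AC087393.2, opposite the end of USP22, a deubiquitinase gene, had a footprint value in 1 of 4 libraries, 0.835 RPKM, which is an estimated 1 read. The remaining 5 of the 8 lowest ratios, AP003392.3, AC069234.3, ARAP1-AS1, AC145207.4 and AC011446.1, were listed at 0 in all 4 footprint libraries with mean RNA of 23.4 to 37.5 RPKM. OIP5-AS1, a cytoplasmic RNA also called cyrano, had RNA of 8.32 to 9.27 RPKM and footprints of 0.404 and 0 RPKM in DMSO and 0 and 0.286 in silvestrol. EPB41L4A-AS1 had footprints of 2.77 and 3.96 RPKM in DMSO and 3.14 and 8.82 in silvestrol, and PCBP1-AS1, across the coding exon of PCBP1, had 9.97 and 10.9 against 13.1 and 13.2. Of these 8 lowest, 6 overlapped only untranslated parts after a coding region and 2, AP003392.3 and ARAP1-AS1, touched coding sequence.

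Of the members with the highest ratios after MALAT1, MBNL1-AS1 lies opposite the untranslated start of MBNL1, a splicing regulator. Its footprints were 148 and 123 RPKM in DMSO and 131 and 147 in silvestrol, against RNA of 10.1 to 12.2 RPKM and a mean footprint level of 28.2 RPKM for MBNL1. Its treatment groups overlapped. The other 9 of the 12 highest, apart from TRBV11-2, had DMSO ratios of 1.56 to 2.24, and all 9 overlapped a coding gene: AC009052.1 (POLR2C), AC011825.4 (RNF138), NCBP2-AS1 (NCBP2), AP000753.2 (ATL3), AL139021.1 (TIMM9), AC020558.1 (PEMT), AP001267.1 (UBE4A), AC115618.1 (RBM3) and H1-10-AS1 (H1-10).

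Levels of members and of the coding genes they overlap were compared in 283 pairs with a partner in the files, holding 274 different partners. Across these pairs the RNA levels had a Spearman rho of 0.41 and the footprint levels 0.20. Footprint levels gave 0.30 over the 200 pairs sharing coding sequence and 0.002 over the 83 pairs sharing untranslated parts only. The changes of RNA with silvestrol gave 0.38 over 276 pairs, and the changes of footprints -0.03 over 196 pairs. Genes of a pair come from the same libraries and may hold the same reads, so these values are descriptions.

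**Figure D4:**
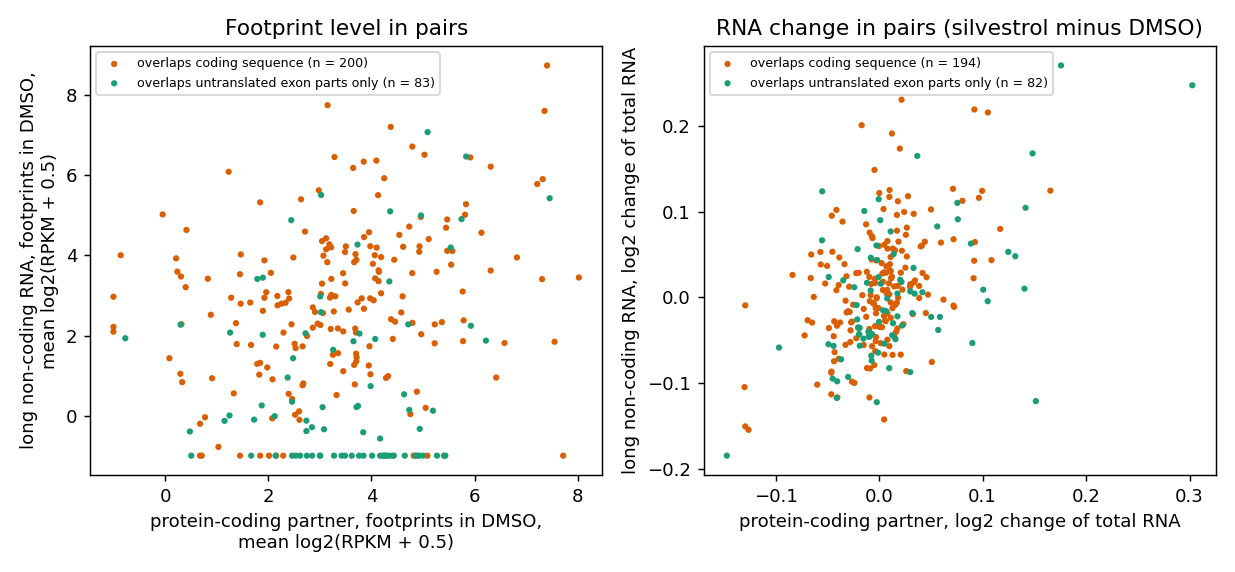
Left, mean footprints in DMSO as log2(RPKM + 0.5) of the overlapping protein-coding gene (x axis) and of the long non-coding RNA (y axis); right, log2 change of total RNA with silvestrol in the same pairs. The bottom row of the left panel, at -1, holds genes listed at 0 in DMSO footprints, most of them green (untranslated parts only), and points in the right panel lean upward (rho 0.38).

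Total RNA of the members differed little between treatments. In limma on log2(RPKM + 0.5), 0 of 332 members passed an adjusted p of 0.05, against 5 of 12350 tested genes (0.0405%). At an unadjusted p under 0.05 there were 44 members (13.3%, against 8.66% of tested genes), 28 higher and 16 lower in silvestrol. The median log2 change was 0.006 over members and 0.003 over all tested genes. In 30 members all silvestrol RNA libraries lay above all DMSO libraries (9.04%, background 8.56%), and in 23 they all lay below (6.93%, background 4.22%). The spread between replicates was small here, with a median SD of 0.046 (DMSO) and 0.057 (silvestrol) on the log2 scale.

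The lowest p belonged to PRR11-AS1, picked for that p, with 41.8, 41.9 and 44.3 RPKM in DMSO and 37.3, 37.5 and 37.6 in silvestrol. The groups did not overlap, and the log2 change of -0.18 (SE 0.03) had a limma adjusted p of 0.089. The 5 largest RNA changes were all higher in silvestrol, from 0.22 to 0.27 on the log2 scale: AC113208.3, C6orf47-AS1, AC108002.1, AC079305.1 and AL136038.2. Their limma adjusted p values ran from 0.20 (AL136038.2) to 0.65 (AC108002.1).

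Footprints were tested in the 249 members with a mean of at least 1 footprint RPKM, and 0 of 249 passed, against 5 of 10297 tested genes (0.0486%). On simulated reads this test recovered 0% of 1.5-fold increases and 46.9% of 2-fold decreases put in. A count of 0 thus does not show that footprints stayed the same. At an unadjusted p under 0.05 there were 28 members (11.2%, against 6.98%), 8 higher and 20 lower, and limma-voom on estimated reads also called 0. The higher share in members depended on the setting. Under limma-voom it was 6.43% of members against 8.96% of tested genes, and without the footprint minimum 6.33% against 10.3%. The median log2 change was -0.15 over these members and -0.07 over all tested genes. Without the footprint minimum the medians were -0.05 over 332 members and -0.05 over 12350 genes. The 2 silvestrol libraries lay above both DMSO libraries in 25 of 249 members (background 13.1%) and below both in 58 (23.3%, background 25.2%). These shares stood close to the background. The 83 members under the footprint minimum, NORAD and OIP5-AS1 among them, have no such test in the main setting.

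**Figure D5:**
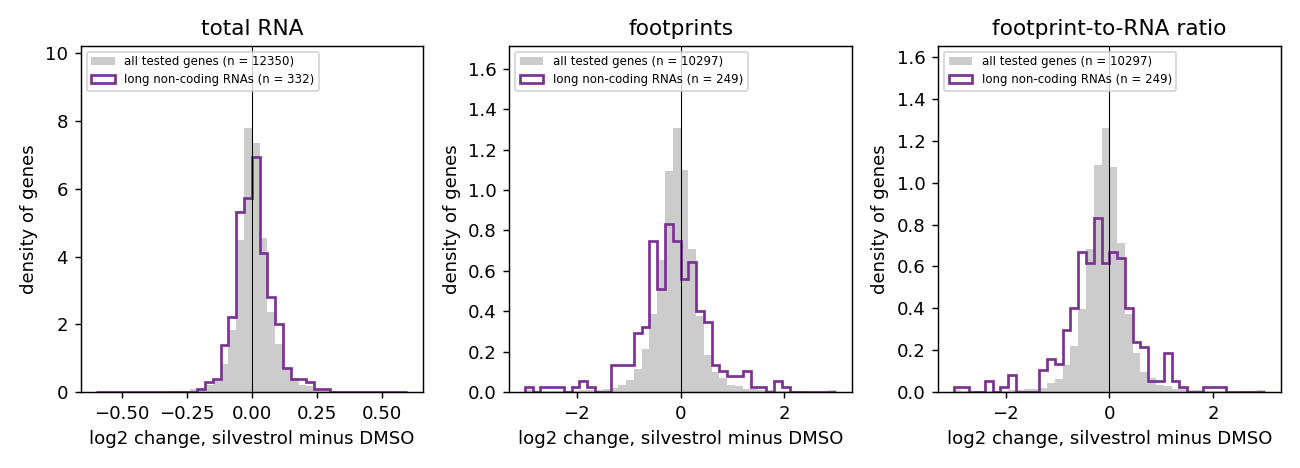
Distribution of log2 changes, silvestrol minus DMSO (x axis), as density of genes (y axis), for long non-coding RNAs (purple line) and all tested genes (grey), in total RNA, footprints and their ratio; values beyond the axis are placed in the outer bins. The RNA panel spans -0.6 to 0.6 and the others -3 to 3, and the medians of members are 0.006, -0.15 and -0.16.

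The footprint-to-RNA ratio was lower in silvestrol for 1 of 249 members, against 11 of 10297 tested genes (0.107%). That member, AL451070.1, lies opposite ZCCHC17, the gene of a zinc-knuckle protein. Its footprint values were 3.02 and 1.37 RPKM in DMSO and 0 in both silvestrol libraries, while its RNA was 11.9 to 13.3 RPKM in all 6 libraries. The log2 change of its ratio was -2.34 (SE 0.37, limma adjusted p 0.042). On simulated reads of 10052 genes with no change put in, the ratio test made 15 calls, more than the 11 in these data. This does not show how many of the 11 are false. The DMSO values amount to an estimated 3.01 and 0.998 reads, the size of the change depends on the pseudocount, and the call was lost under limma-voom on estimated reads (adjusted p 0.14). It was also lost without DMSO footprint replicate 1 (adjusted p 0.19), either silvestrol footprint replicate (0.055 and 0.063), DMSO RNA replicate 2 (0.070) or silvestrol RNA replicate 1 or 2 (0.063 and 0.081). At an unadjusted p under 0.05 there were 38 members (15.3%, against 7.38%), 10 higher and 28 lower. These shares were 12.4% and 10.2% under limma-voom, and 12.7% and 7.55% without the footprint minimum. With a single spread for both assays, a setting in which the noisier footprints weigh as much as RNA, 15 members were called, 4 higher and 11 lower (background 5.29%). The unadjusted shares were then 21.3% of members and 22.3% of tested genes. The median change of the ratio was -0.16 over members and -0.08 over all tested genes. It was -0.057 over 332 members and -0.066 over 12350 genes without the footprint minimum.

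The other large ratio changes did not pass. AP001458.1, whose exons span 92 nt, had footprints of 4.8 and 13.1 RPKM in DMSO and 0 in silvestrol, from an estimated 1 and 2 reads. RRM1-AS1 had 25.5 and 8.70 RPKM in DMSO and 1.22 and 4.26 in silvestrol, and its groups did not overlap. Its log2 change of the ratio was -2.35 (SE 0.53, limma adjusted p 0.28). For TAB3-AS2 the log2 difference was -2.70 (SE 1.09) and for MAGOH-DT 2.10 (SE 0.44), with limma adjusted p values of 0.66 and 0.15. All 4 rested on an estimated 20.0 reads or fewer in every footprint library.

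The pathway lists showed 0 called genes in RNA and in footprints. By list, RNA was tested for 7 architectural and nuclear RNAs, 11 cytoplasmic regulatory RNAs, 8 microRNA hosts, 23 small open reading frame genes and 19 T-cell and leukaemia RNAs, members and others. The 22 paraspeckle and speckle proteins, such as SFPQ and NONO, had a median log2 RNA change of -0.02 and the 22 tested genes of the nuclear RNA exosome and its adaptors, which degrade many non-coding transcripts, had 0.01. In the ratio, 0 genes were called on 6 of these 7 lists and 1 on the T-cell and leukaemia list, SIAH2-AS1, which is no member. Its footprints were 4 and 2.73 RPKM in DMSO and 0 in silvestrol, from an estimated 4 and 2 reads, with RNA of 2.28 to 2.76 RPKM and a limma adjusted p of 0.019. At an unadjusted p under 0.05, limma gave 0 to 2 genes per list in RNA (8.66% of all tested genes). In footprints it gave 5 of 16 T-cell and leukaemia RNAs, 5 of 21 small open reading frame genes and 0 or 1 gene on each other list (background 6.98%). In the ratio it gave 4 of 16, 4 of 21 and 0 or 1, in the same order (background 7.38%).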

How the data were processed

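Footprint and total RNA libraries were analysed from RPKM values, which the authors deposited as 1 file per library, per the file headers. The submitters' processing notes name STAR and hg19. The counting tool, gene lengths and strand setting were not given in the sources used here. GENCODE 29 (GRCh38) supplied types, lengths and exon overlaps by gene ID; 6227 IDs had no type there, 251 of them with at least 5 RPKM of RNA. Of the 19 host genes removed, 2 carry such a name only in the current symbol table.

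Depth was estimated from the steps between low values and exon length. Sums over genes came to 118.3% to 119.8% of the RNA totals, so these are rough, and intervals would cover counting error only. R 4.3.3 with limma 3.58.1 (trend, robust, Benjamini-Hochberg, two-sided) tested log2(RPKM + 0.5), which understates changes of low genes. RNA was tested in genes with a mean of at least 1 RPKM of RNA, footprints and the ratio in genes with at least 1 in both. The ratio was an interaction over 10 libraries with 1 weight per assay (0.119 for footprints, 4.12 for RNA). On simulated reads of 10052 genes with no change put in, the RNA, footprint and ratio tests made 6, 16 and 15 calls. In the same order, they recovered 98%, 0% and 10% of 1.5-fold increases put in, and 100%, 46.9% and 42.9% of 2-fold decreases. On the real libraries they made 5 of 12350, 5 of 10297 and 11 of 10297. Whether the simulated spread matches that of these libraries was not tested. The share of false calls among the real ones and the share of changes missed are therefore unknown. Alternatives were the pseudocount, scaling, filters, limma-voom on estimated reads, a replicate block and leaving out each library.

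Members, classes and lists were chosen with earlier results of these data known. Named genes were the 15 highest in RNA, the 12 highest and 8 lowest ratios, called members or the 5 largest changes, members of the lists of architectural RNAs, microRNA hosts, small open reading frames and T-cell RNAs, and those nearest the minimum. Some items that this rule or the lists would name are not reported here.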

Additional observations from a re-analysis of the deposited data

How the results depend on the processing

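The count of 0 called members in total RNA and in footprints stayed 0 under every alternative run for them. The count of 1 in the ratio became 0 at a pseudocount of 1, with a common median, without the footprint minimum and under limma-voom on estimated reads, and 15 (4 higher, 11 lower) with a single spread for both assays, where 545 of 10297 genes (5.29%) were called. Leaving out each library in turn gave 0 to 6, the highest without silvestrol footprint replicate 1, and 3, 3 and 4 without the other footprint libraries. Over all genes, calls ranged from 0 to 29 in RNA (5 as reported), 0 to 28 in footprints (5) and 8 to 545 in the ratio (11). The cause was not tested.

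The median DMSO ratio of -1.17 was -1.26 at a pseudocount of 0.1 and -1.07 at 1, -1.01 with an RNA minimum of 2 RPKM (669 genes), -1.29 with 10 RPKM (179 genes), -0.57 over members without coding exon overlap and -0.67 relative to protein-coding genes. Leaving out each DMSO library gave -1.17 to -1.07. Of the values for named genes under alternatives, 179 kept direction and side of the threshold, 10 lost and 5 gained a call, and 0 reversed. All 10 losses belonged to the ratio of AL451070.1, the only named change called in the main run. The other named changes had no call to lose, so the 179 do not measure how stable a call is. Some of these alternatives left 1 footprint library in a treatment.

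With the replicate number as a block, called members stayed at 0 in RNA, 0 in footprints and 1 in the ratio. Whether the numbers pair the libraries cannot be told from these values. Same-numbered deviations correlated at -0.03 in footprints and at 0.04, -0.33 and 0.15 in RNA. Different-numbered deviations correlated at 0.03 in footprints and from -0.32 to 0.30 in RNA. With 2 footprint libraries per treatment, the deviations mirror each other and hold a single contrast. Footprint depth limits the member values, since 158 of 332 members had fewer than 10 estimated reads.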

Other observations

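MIR16-1, the gene of miR-16 inside DLEU2, was listed with footprints of 19.8 and 13.5 RPKM in DMSO and 28.4 and 22.1 RPKM in silvestrol. Its total RNA was listed at 0 in 5 of 6 libraries and at 0.0887 RPKM in silvestrol replicate 1. Over its 89 nt the footprint values come to an estimated 4, 2, 6 and 4 reads.

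Among the snoRNA host genes set beside the members, SNHG25 had the highest DMSO ratio, 4.39, from means of 26.2 RPKM of RNA and 640 RPKM of footprints, and SNHG20 the lowest, -2.15.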
